A study of Gallus gallus with 24 samples.

Results

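Mock cells of the chicken line DF1, with normal IRF9, were compared at 6 h and 0 h of poly(I:C), which mimics the double-stranded RNA of viruses. The members were the 3 mock libraries of 6 h and the 3 of 0 h, 6 of the 24 libraries of the series, chosen by their labels alone. Of the 25466 genes in the files, 11696 had a mean of at least 1 CPM, a count scaled to the size of its library, in either group and were tested. Of these, 228 passed only through their 6 h level and 201 only through their 0 h level. DF1 is a spontaneously immortalised line of chicken embryonic fibroblasts, so the cells are 1 line and not a tissue. The mock 6 h group was wild type and had 6 h of poly(I:C). The mock 0 h group was also wild type, and the labels name poly(I:C) for it too. The sources used here do not say what the mock treatment was or how poly(I:C) reached the cells. The other groups of the study, used below only beside these members, were mock cells at 30 min and 1 h and IRF9 knockdown cells at the same 4 times.

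Double-stranded RNA is a sign of viral infection. In the endosome it is sensed by TLR3, and in the cytosol by MDA5, the product of IFIH1, which signals through MAVS. Both routes lead to NF-kB, which drives chemokines and other inflammatory genes, and to interferon regulatory factors, which drive interferons. Secreted interferon then acts through its receptors and, in mammals, a complex of STAT proteins and IRF9 to turn on antiviral genes.

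The 6 libraries held 12946730 to 18171990 counts in genes at 6 h and 14105386 to 18011500 at 0 h, and 3 counts corresponded to 0.160 to 0.240 CPM. On a principal component analysis of these 6 libraries, the first component (33.1% of the variance) set the replicate 2 libraries of both times, at 26.5 and 25.9, apart from the other 4, at -23.6 to -4.55. The second (28.9%) set the 6 h libraries, at -26.0 to -12.3, apart from the 0 h libraries, at 14.7 to 20.1. Fibroblast markers summed to 6434 to 7819 CPM at 6 h and 6578 to 7802 CPM at 0 h, with none of the 15 tested members called and, with the replicate block, 1 higher and 4 lower. The 16 leukocyte markers in the files summed to 33.1 to 39.7 CPM at 6 h and 19.999 to 23.2 CPM at 0 h, of which CD3E, a T cell marker that was called higher (1.16, adjusted p = 0.000124, called under all 17 alternatives), made up 20.7 to 26.5 CPM at 6 h and 9.82 to 12.04 CPM at 0 h. CD8A, CD79B, C1QA, C1QB and C1QC had no count in the 6 libraries. The 13 epithelial markers summed to 1.84 to 2.79 CPM at 6 h and 1.02 to 2.51 CPM at 0 h. Endothelial markers summed to 216 to 309 CPM at 6 h and 187 to 225 CPM at 0 h, nearly all of it ERG, which was higher with the block only. Neural markers summed to 225 to 321 CPM at 6 h and 279 to 327 CPM at 0 h. Nearly all of this was TUBB3, at 219 to 316 CPM at 6 h and 270 to 320 CPM at 0 h. The part of any such cells in the results was not tested. The labels do not call the replicates separate cultures, and the p-values then reflect no more than the variation among the libraries fitted. The main fit took its spread from all 24 libraries, knockdown cells included, and not from these 6 alone. As a coefficient of variation between libraries of a group, this spread was 13.7%. It was 16.7% in a fit of the 12 mock libraries and 15.2% in a fit of these 6. No unstimulated 6 h samples were analysed here, so poly(I:C) and time in culture cannot be told apart for any 6 h change. In bulk RNA, a change in the cells present and a change in RNA per cell cannot be told apart either.

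At 6 h, 270 genes were higher and 26 lower than at 0 h at an adjusted p under 0.05 (edgeR's quasi-likelihood test, Benjamini-Hochberg adjustment over all 11696 genes). These were 2.31% and 0.222% of the genes tested, or 2.53% together, and a gene is said below to have risen or fallen only where it passed this test. At an unadjusted p under 0.05 there were 1259 genes. Of the rises, 87 had a log2 change of at least 1 and 19 of at least 2; of the falls, 4 had a log2 change of -1 or less and 1 of -2 or less. The median log2 change was 0.75 over the rises and -0.73 over the falls, against -0.0016 over all genes tested. The genes that rose took 62543, 73165 and 61012 CPM together in the 6 h libraries, against 39055, 39296 and 38698 CPM in the 0 h libraries. The genes that fell took 1016, 923 and 971 CPM at 6 h, against 1470, 1578 and 1397 CPM at 0 h. In 268 of the 270 rises and all 26 falls no 6 h library overlapped a 0 h library, as was also the case for 14.6% of all genes tested. With the replicate number as a block, 545 genes were higher and 194 lower (4.66% and 1.66% of the genes tested, 6.32% together), and all 296 genes named changed here were among them. Without the 6 h replicate 2 library 174 genes were higher, and without the 0 h replicate 2 library 9 were lower. In a fit of the 6 libraries alone 149 were higher and 7 lower. Of all 296 called genes, 121 were called under all 17 alternatives tried, 116 of the rises and 5 of the falls. Of 141 called genes chosen by a rule for naming, which took large changes and small p-values, 79 kept the call whichever of the 6 libraries was left out. For the others named below, the library whose absence gave the highest adjusted p is given, with the log2 change and adjusted p without it. That library was often not the only one whose absence ended the call. ZNF395 and B4GALT4 lost it whichever of the 6 was left out. METRNL, INHBB, CD40, LRP8, NFKBIE, NFIL3, NR1D2, DTX2, CYP24A1, SLC38A2 and CDKN1B lost it in 5 of the 6 cases. IL16, AHR1B, CDK6 and TNFAIP6 lost it in 1.

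**Figure D1:**
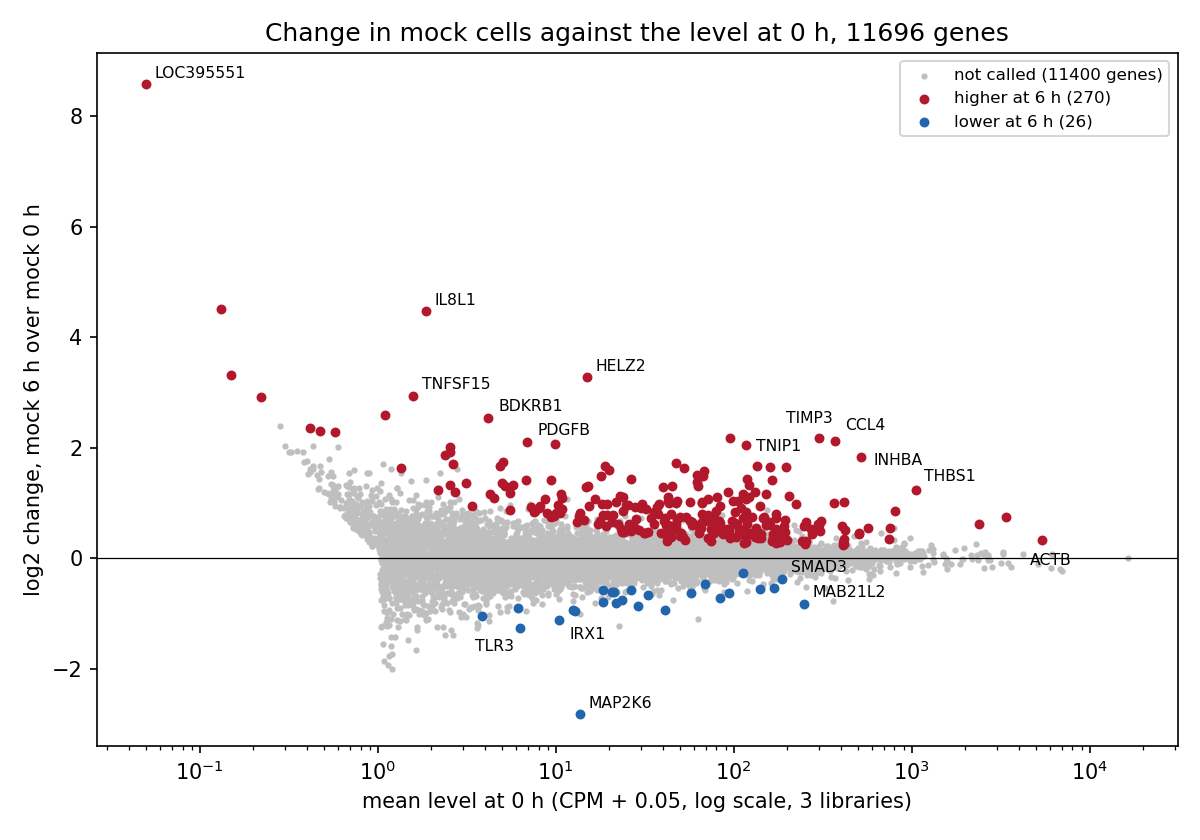
Each point is 1 of the 11696 genes tested, placed by its mean level in the 3 mock 0 h libraries (CPM + 0.05, log scale) and its log2 change at 6 h over 0 h. Red points are the 270 genes called higher and blue points the 26 called lower. Called rises stretch from genes under 1 CPM to ACTB, at the far right. LOC395551 had no count at 0 h, so its height is a fitted value and not a measured fold.

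By class, 25 of 97 tested ligand genes rose (25.8%) and 2 fell, 22 of 245 receptor genes rose (8.98%) and 3 fell, 22 of 349 transcription factor genes rose (6.30%) and 3 fell, and 46 of 638 enzyme genes rose (7.21%) and 1 fell. Genes in none of the lists used here numbered 9883, of which 138 rose (1.40%) and 15 fell. The lists and their members were chosen with earlier results of these data known. A larger share of calls inside a list than outside is thus no test of that class. Protein-coding genes made up 10713 of the genes tested, with 257 rises and 26 falls, and long non-coding RNA genes made up 892, with 12 rises and no fall.

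Cytokine, chemokine and colony-stimulating factor genes gave 9 rises and no fall among 15 tested members, 13 of which had a positive log2 change, with a median of 1.00. IL8L1, a chicken relative of the neutrophil chemokine interleukin 8, was at 57.5, 39.6 and 25.2 CPM in the 6 h libraries, against 1.79, 1.93 and 1.72 CPM in the 0 h libraries (log2 change 4.48, SE 0.44, adjusted p = 5.27e-07). Its neighbour IL8L2, of the same family, was at 519, 464 and 317 CPM in the 6 h libraries, against 139, 78.95 and 68.6 CPM in the 0 h libraries (log2 change 2.18, SE 0.36, adjusted p = 0.000444). For both genes every 6 h library lay above every 0 h library, and replicate 1 was the highest and replicate 3 the lowest of the 6 h libraries. CCL4, a chemokine that draws macrophages and T cells, was at 1463, 1758 and 1620.4 CPM in the 6 h libraries, against 314, 422 and 372 CPM in the 0 h libraries (log2 change 2.13, SE 0.17, adjusted p = 2.53e-08). CX3CL1, a membrane-bound chemokine, was at 62.3, 85.5 and 68.7 CPM at 6 h and 23.01, 30.5 and 26.1 CPM at 0 h (log2 change 1.44, SE 0.23, adjusted p = 0.000256).

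CSF3, which drives granulocyte production, was at 12.4, 10.1 and 7.73 CPM at 6 h and 3.23, 2.57 and 1.72 CPM at 0 h (log2 change 2.01, SE 0.31, adjusted p = 0.000198). CSF1, the growth factor of macrophages, was at 83.1, 94.4 and 81.8 CPM at 6 h and 44.2, 45.8 and 39.6 CPM at 0 h (log2 change 1.00, SE 0.16, adjusted p = 0.000459). LIF, a cytokine of the interleukin 6 family, was at 167, 159.5 and 142 CPM at 6 h and 56.3, 70.02 and 62.5 CPM at 0 h (log2 change 1.31, SE 0.15, adjusted p = 4.3e-06). The libraries of the groups did not overlap for any of these 3 genes. IL16, a T cell attractant, rose as well (log2 change 0.84, SE 0.18, adjusted p = 0.00585), but it overlaps LOC415472, which also rose, and without knowledge of the strand used in counting its reads are uncertain. IL16 lost its call without the 6 h replicate 3 library (0.70, adjusted p = 0.0549). CSF2, chosen after its values were seen, had 87 counts in the 3 libraries of 6 h and 17 in those of 0 h, a ratio of 5.30 (exact 95% interval 3.13 to 9.51, counting error only). CSF2 passed the filter of 1 CPM only through its 6 h level (mean 1.85 CPM, against 0.365 at 0 h), so the filter favoured a rise. Its call (adjusted p = 0.0473) held under 5 of 17 alternatives and was lost without the 4 mock libraries of replicate 2 (1.90, adjusted p = 0.281). Of the list members in the files, 35 were under the level tested. The interferon genes IFNA3, IFNG and IFNL3A and the interleukin gene IL6 had no count in the 6 libraries, and IFNW1 had 0 counts at 6 h and 3 at 0 h. Summed over 3 libraries, IL1B had 23 counts at 6 h and 6 at 0 h and CCL20 41 and 35, while others had fewer at 6 h: CXCL14 16 counts at 6 h and 36 at 0 h, CXCL13L3 0 and 12, IL15 4 and 11, and IL34 0 and 8. These untested genes were also chosen after their values were seen, and a count of 0 in a library allows a level of up to 3 counts.

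Among the 6 tested TNF superfamily ligands, TNFSF15 rose and TRAIL-LIKE fell. TNFSF15, a ligand that acts on T cells and on endothelium in mammals, was at 8.01, 14.6 and 13.1 CPM in the 6 h libraries, against 0.788, 1.82 and 1.99 CPM in the 0 h libraries (log2 change 2.94, SE 0.34, adjusted p = 3.69e-06). Replicate 1 was the lowest library in both groups, and the groups did not overlap. Growth factor ligands gave 5 rises and 1 fall among 25 tested (median log2 change 0.24), and 7 rises with the replicate block. PDGFB, a growth factor for fibroblasts and pericytes, was at 35.7, 29.2 and 23.7 CPM in the 6 h libraries, against 7.38, 7.01 and 6.09 CPM in the 0 h libraries (log2 change 2.11, SE 0.19, adjusted p = 1.45e-07). ANGPTL4, a secreted inhibitor of lipoprotein lipase, was at 541, 323 and 429.5 CPM at 6 h and 182, 107 and 117 CPM at 0 h (log2 change 1.67, SE 0.24, adjusted p = 6.94e-05). CYR61 and CCN2, matricellular proteins of the CCN family, rose too (log2 change 1.00, SE 0.19, adjusted p = 0.00164, and log2 change 0.66, SE 0.16, adjusted p = 0.0186). VEGFA, the growth factor of blood vessels, was called at 0.62 (adjusted p = 0.0478). CCN2 lost its call without the 0 h replicate 2 library (0.60, adjusted p = 0.106). VEGFA did so without the 6 h replicate 1 library (0.43, adjusted p = 0.302). With the block, HGF (log2 change 1.56, adjusted p = 0.0434) and BDNF (0.68, adjusted p = 0.0055), both chosen after their values were seen, were also higher. HGF passed the filter only through its 6 h level.

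Of 16 tested ligands and inhibitors of the TGF-beta family, 4 rose and none fell. INHBA, the beta A subunit of activin and inhibin, was at 1580.2, 2183 and 1782 CPM in the 6 h libraries, against 445, 483 and 622 CPM in the 0 h libraries (log2 change 1.84, SE 0.14, adjusted p = 1.16e-08), and it lies on chromosome 2 from 50572407 to 50593177 (GRCg7b). FSTL3, a secreted protein that binds and blocks activin, was at 134, 157 and 144 CPM at 6 h and 72.3, 91.7 and 75.4 CPM at 0 h (log2 change 0.86, SE 0.16, adjusted p = 0.0015). A ligand subunit and a binding protein of the same pathway thus were both higher in every 6 h library. INHBB, the beta B subunit (log2 change 0.92, SE 0.22, adjusted p = 0.017), and BMP3 (log2 change 0.93, SE 0.25, adjusted p = 0.0471) were also called. INHBB lost its call without the 6 h replicate 2 library (0.64, adjusted p = 0.172). BMP3 did so without the 6 h replicate 2 library (0.53, adjusted p = 0.389). None of 6 tested WNT ligands and secreted antagonists was called, with a median log2 change of 0.30.

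Guidance and contact ligands gave 3 rises among 20 tested (with 1 fall added by the block), against a list median of -0.086. SEMA6A, a transmembrane semaphorin, was at 39.5, 45.7 and 46.4 CPM at 6 h and 22.1, 19.7 and 23.6 CPM at 0 h (log2 change 1.01, SE 0.11, adjusted p = 2.9e-06). SEMA3C, a secreted semaphorin (0.47), and NTNG2, a netrin-like membrane protein (0.87), were also called. SEMA3C lost its call without the 6 h replicate 2 library (0.32, adjusted p = 0.159). NTNG2 did so without the 6 h replicate 2 library (0.62, adjusted p = 0.218). Vasoactive and other secreted peptides gave 3 rises among 9 tested. ADM, the precursor of the vasodilator adrenomedullin, was at 130.3, 159 and 164 CPM at 6 h and 66.2, 69.8 and 79.7 CPM at 0 h (log2 change 1.07, SE 0.16, adjusted p = 0.000169). STC2, the secreted glycoprotein stanniocalcin 2, was at 43.9, 37.04 and 33.7 CPM at 6 h and 23.3, 18.7 and 16.3 CPM at 0 h (log2 change 0.98, SE 0.15, adjusted p = 0.000158). EDN1, the precursor of the vasoconstrictor endothelin 1, was at 13.9, 16.04 and 15.5 CPM at 6 h and 4.95, 2.25 and 7.28 CPM at 0 h (log2 change 1.67, SE 0.39, adjusted p = 0.016). EDN1 lost its call without the 0 h replicate 2 library (1.31, adjusted p = 0.123), the lowest of the 0 h libraries.

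The bradykinin receptor genes rose together. BDKRB1 and BDKRB2 encode the receptors for bradykinin peptides, which widen vessels and raise pain sensitivity, and are neighbours on chromosome 5 (45894805 to 45897638 and 45869921 to 45891677, GRCg7b). BDKRB1 was at 19.3, 31.1 and 21.7 CPM in the 6 h libraries, against 4.30, 4.76 and 3.24 CPM in the 0 h libraries (log2 change 2.55, SE 0.24, adjusted p = 2.58e-07). BDKRB2 was at 31.3, 53.3 and 41.2 CPM in the 6 h libraries, against 5.95, 13.5 and 10.3 CPM in the 0 h libraries (log2 change 2.07, SE 0.29, adjusted p = 5.64e-05). In both genes replicate 2 was the highest library of each group, and the groups did not overlap. CXCR7, an atypical receptor that takes up CXCL12, was the other G protein-coupled receptor gene called, so 3 of 62 tested rose (log2 change 0.66, SE 0.16, adjusted p = 0.0212), where the list median was -0.065. CXCR7 lost its call without the 6 h replicate 2 library (0.51, adjusted p = 0.155). With the block 5 of these genes were higher and 4 lower.

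Of 15 tested TNF receptor superfamily genes, 4 rose and 1 fell, and with the block 5 rose. The fifth was FAS, a death receptor (0.59, adjusted p = 2.18e-05, against 0.0775 without the block), chosen after its values were seen. TNFRSF11B encodes osteoprotegerin, a secreted decoy receptor for RANKL and, in mammals, TRAIL, and was at 114, 215 and 201 CPM in the 6 h libraries, against 59.4, 60.1 and 67.04 CPM in the 0 h libraries (log2 change 1.51, SE 0.17, adjusted p = 2.46e-06). TNFRSF10B, a receptor for TRAIL, was at 127, 123 and 117 CPM at 6 h and 84.1, 56.6 and 73.3 CPM at 0 h (log2 change 0.78, SE 0.14, adjusted p = 0.00137). The death receptor gene and the decoy were thus higher while the TRAIL-LIKE ligand gene, given below, was lower. CD40, the receptor for the T cell ligand CD40L, was at 62.9, 72.9 and 62.6 CPM at 6 h and 43.4, 46.2 and 43.1 CPM at 0 h (log2 change 0.58, SE 0.15, adjusted p = 0.0369), and RELT rose by 0.72 (adjusted p = 0.00842). CD40 lost its call without the 6 h replicate 2 library (0.50, adjusted p = 0.16). RELT did so without the 0 h replicate 1 library (0.62, adjusted p = 0.0741).

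Of 25 tested cytokine and interferon receptor genes, 3 were called, each by under 1.5-fold: IFNGR1, a chain of the interferon gamma receptor (log2 change 0.50, SE 0.10, adjusted p = 0.00334), IL4R (log2 change 0.44, SE 0.09, adjusted p = 0.00738) and IL17RA (log2 change 0.30, SE 0.08, adjusted p = 0.0379). IL4R lost its call without the 0 h replicate 2 library (0.39, adjusted p = 0.064). IL17RA did so without the 0 h replicate 1 library (0.23, adjusted p = 0.249). None of 32 tested receptor tyrosine kinase genes was called. In that list 1 gene was higher and 1 lower with the block, which were FLT1 (0.50) and AXL (-0.36). Integrins and adhesion receptors gave 4 rises among 33 tested, and 6 rises and 4 falls with the block. F3, the tissue factor that starts coagulation, was at 8.97, 7.85 and 8.63 CPM at 6 h and 2.22, 2.09 and 3.51 CPM at 0 h (log2 change 1.70, SE 0.27, adjusted p = 0.000342). ITGAV, an integrin chain that binds vitronectin and latent TGF-beta, was at 3400.1, 4235 and 3390.0 CPM at 6 h and 2401, 2482 and 2314 CPM at 0 h (log2 change 0.62, SE 0.09, adjusted p = 0.000125). CD44, the receptor for hyaluronan, rose by 0.62 (adjusted p = 0.000158), and HAS2, which makes hyaluronan, by 1.11 (adjusted p = 6e-05). SDC4, a heparan sulfate proteoglycan, was called at 0.84. SDC4 lost its call without the 0 h replicate 2 library (0.65, adjusted p = 0.103). Co-receptors of the TGF-beta, Notch and WNT pathways gave 3 rises among 42 (6 rises and 1 fall with the block), among them BAMBI, a decoy receptor for TGF-beta family ligands (log2 change 0.58, SE 0.11, adjusted p = 0.00304). The others were PLXNA1, a semaphorin receptor (0.44, adjusted p = 0.0188), and LRP8, a receptor for reelin (0.46, adjusted p = 0.0341). PLXNA1 lost its call without the 6 h replicate 2 library (0.36, adjusted p = 0.129). LRP8 did so without the 6 h replicate 2 library (0.41, adjusted p = 0.148).

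**Figure D2:**
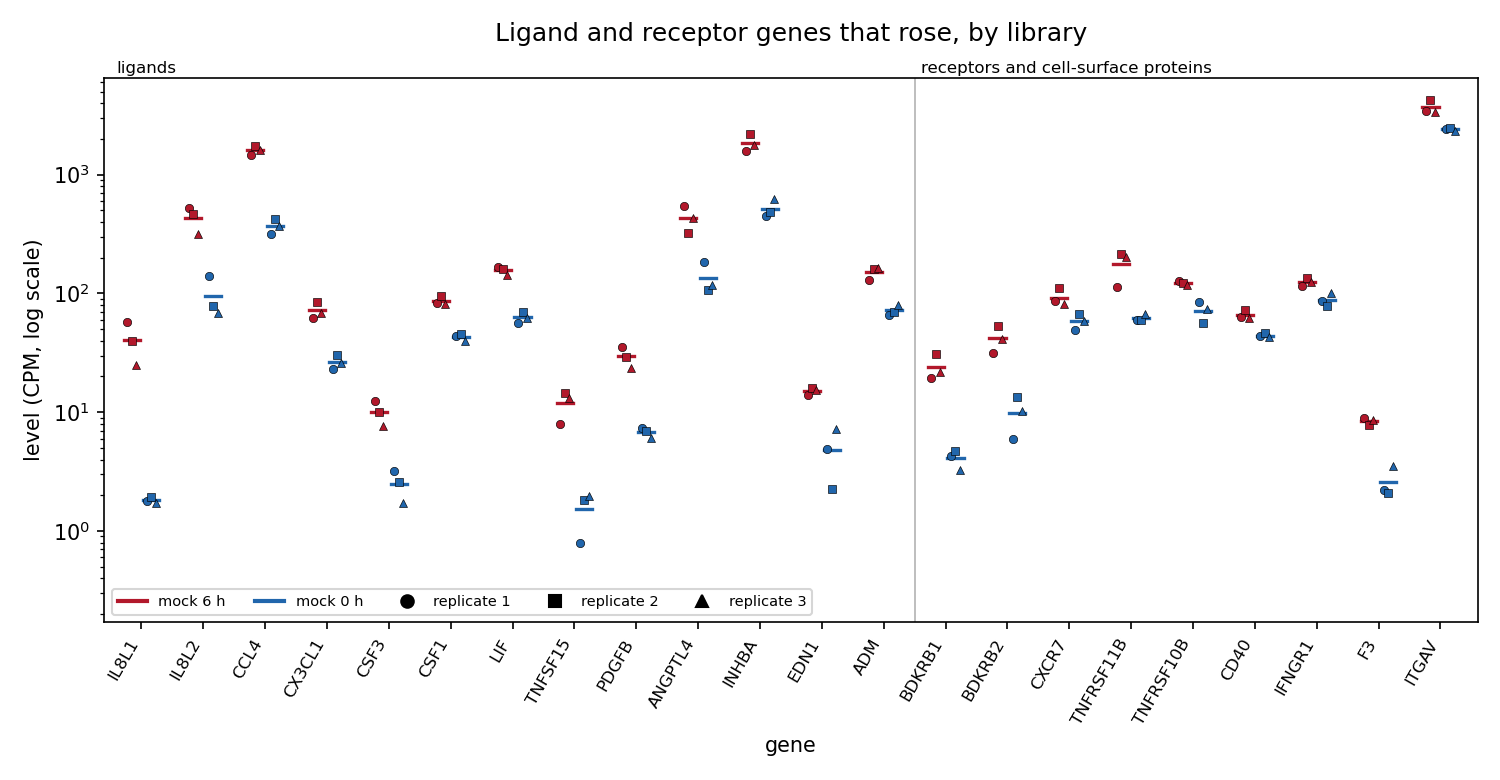
Levels (CPM, log scale) of 13 ligand genes and 9 receptor or cell-surface genes, all picked from those called higher, in each mock library, with 6 h in red left of 0 h in blue. Marker shapes are replicates and bars are means of 3 libraries. In each gene shown every 6 h library lies above every 0 h library, and the gap is widest for IL8L1, at 25.2 to 57.5 CPM at 6 h and 1.72 to 1.93 CPM at 0 h.

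The genes that sense double-stranded RNA and pass on the interferon signal did not move together. TLR3, on chromosome 4 from 60833481 to 60843093 (GRCg7b), fell. It was at 1.68, 4.29 and 1.73 CPM in the 6 h libraries, against 5.88, 6.47 and 6.49 CPM in the 0 h libraries (log2 change -1.26, SE 0.27, adjusted p = 0.0085). The 6 h libraries of replicates 1 and 3 were far below all others and replicate 2 lay between them and the 0 h libraries. Without the 4 mock libraries of replicate 2 the log2 change was -1.86. TLR3 lost its call without the 6 h replicate 3 library (-1.03, adjusted p = 0.0712). TRIL, which in mammals aids signalling of TLR4 and TLR3, was at 2.80, 3.34 and 3.58 CPM at 6 h and 6.31, 7.06 and 4.83 CPM at 0 h (log2 change -0.90, SE 0.21, adjusted p = 0.0186). IFIH1 was at 10.01, 13.3 and 10.1 CPM at 6 h and 11.7, 9.36 and 12.2 CPM at 0 h. MAVS was at 20.7, 21.8 and 24.3 CPM at 6 h and 20.6, 24.7 and 20.8 CPM at 0 h. TBK1, the kinase that activates interferon regulatory factors, was at 52.2, 67.4 and 63.1 CPM at 6 h and 54.4, 57.2 and 53.8 CPM at 0 h. The libraries of these 3 genes overlapped and none passed the test. DHX58, the gene of the MDA5 helper LGP2, was at 2.40, 2.40 and 2.68 CPM at 6 h and 3.01, 2.84 and 3.37 CPM at 0 h (log2 change -0.30, adjusted p = 0.851).

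IRF9 itself, the gene knocked down in the other arm of the study, was at 33.5, 33.3 and 32.1 CPM at 6 h and 29.1, 27.3 and 26.3 CPM at 0 h (log2 change 0.26, SE 0.18, adjusted p = 0.708), with no overlap between the groups. None of 32 tested genes for IRF and STAT factors, Janus kinases and SOCS proteins was called, with a median log2 change of -0.036. IRF1, a regulator induced by interferon gamma in mammals, was at 5.52, 6.85 and 2.75 CPM at 6 h and 2.65, 2.51 and 2.32 CPM at 0 h (log2 change 1.02, SE 0.34, adjusted p = 0.157). IRF7, the regulator of type I interferon genes in the chicken, was at 11.6, 11.4 and 12.5 CPM at 6 h and 8.53, 6.42 and 8.60 CPM at 0 h (log2 change 0.60, SE 0.26, adjusted p = 0.378). The groups did not overlap in either gene, and the size of the IRF1 change was within the range of genes that were called, but its level was low and its 6 h libraries ranged widely. IRF1 passed the threshold without the 6 h replicate 3 library (1.31, adjusted p = 0.037). In a fit of the 6 libraries alone with the replicate block, IRF1 (0.96, adjusted p = 0.0295) and IRF7 (0.61, adjusted p = 0.0151) both passed. STAT2 was at 8.49, 9.14 and 7.35 CPM at 6 h and 12.2, 13 and 10.1 CPM at 0 h (log2 change -0.50, adjusted p = 0.342), with no overlap. IRF8, IFNAR1, IFNAR2 and EIF2AK2, the gene of the RNA-activated kinase PKR, had log2 changes of -0.17, -0.018, 0.058 and -0.075 and overlapping libraries. In this list STAT3 (-0.27) and SOCS5 (-0.30) were lower and PRDM1 higher (1.15) with the block, all 3 chosen after their values were seen.

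Interferon-stimulated antiviral effectors gave 4 rises and 1 fall among 44 tested, with a median log2 change of 0.0047. HELZ2, a helicase of this group, was at 133, 143 and 158 CPM in the 6 h libraries, against 18.9, 12.04 and 14.1 CPM in the 0 h libraries (log2 change 3.27, SE 0.22, adjusted p = 3.05e-09). IFI6, a small mitochondrial protein induced by interferon in mammals, had 50 counts in the 6 h libraries and 5 in the 0 h libraries, a ratio of 10.4 (exact 95% interval 4.16 to 33.3). It passed the filter of 1 CPM only through its 6 h level (mean 1.13 CPM, against 0.0994 at 0 h). The filter thus favoured a rise, and the interval is no separate support for it. IFI6 lost its call without the 0 h replicate 3 library (3.11, adjusted p = 0.0935). NLRC5, an activator of MHC class I genes, was at 21.1, 17.8 and 16.04 CPM at 6 h and 10.2, 9.31 and 6.55 CPM at 0 h (log2 change 1.07, SE 0.26, adjusted p = 0.0245). CASP8, the caspase of death receptors, rose by 0.38 (adjusted p = 0.0152). NLRC5 lost its call without the 0 h replicate 3 library (0.91, adjusted p = 0.161). CASP8 did so without the 6 h replicate 3 library (0.32, adjusted p = 0.104). The effectors MX1 and RSAD2 were not tested: MX1 had 0 counts in the 6 h libraries and 0, 4 and 0 in the 0 h libraries, and RSAD2 had none in any of the 6. OASL had 18, 2 and 16 counts at 6 h and 19, 15 and 12 at 0 h. With the block, IFIT5 (1.03, adjusted p = 0.0436) and CIITA (1.34, adjusted p = 0.0318), chosen after their values were seen, were also higher.

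**Figure D3:**
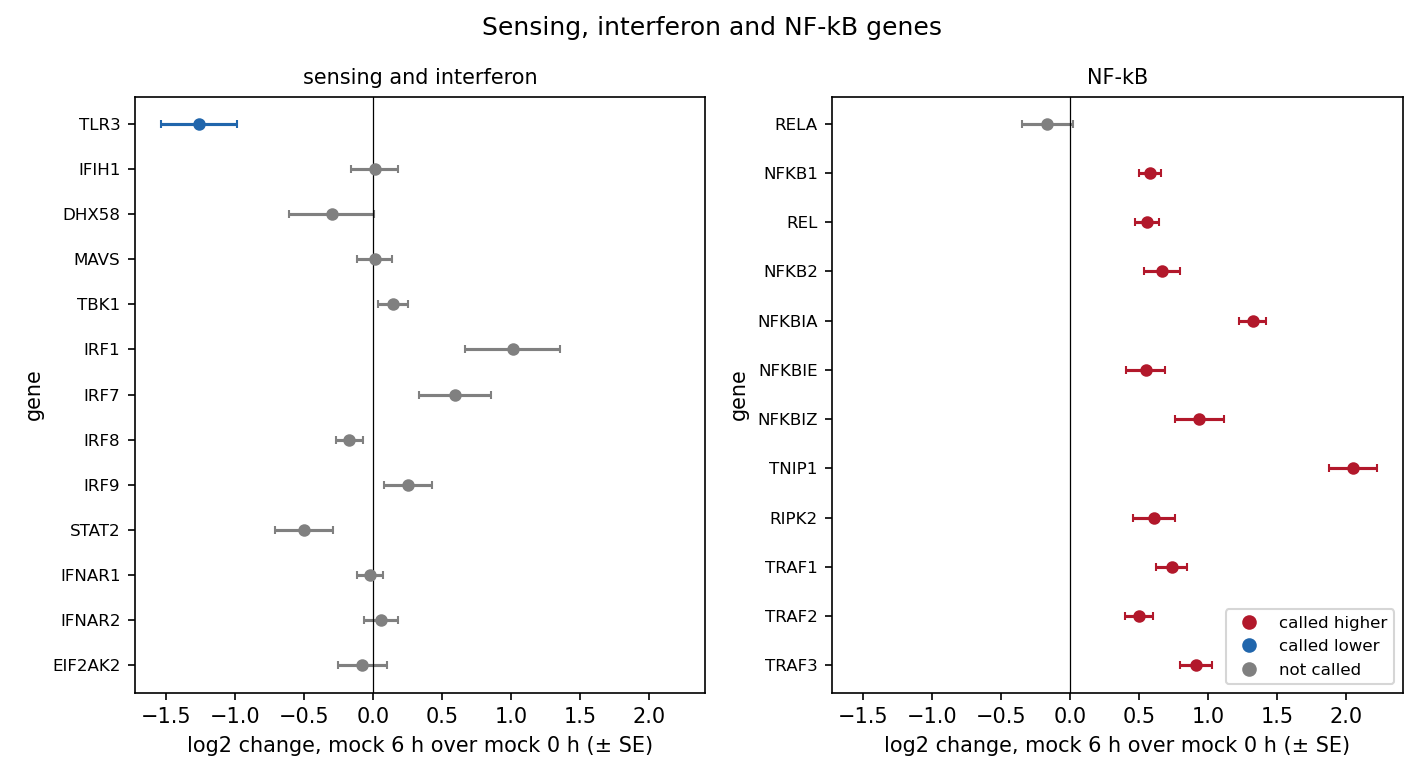
Points are log2 changes at 6 h over 0 h in mock cells and bars their standard errors (edgeR), for 13 genes of RNA sensing and interferon signalling and 12 genes of NF-kB signalling. Red is called higher, blue called lower and grey not called. On the left only TLR3 is called, at -1.26. On the right all genes but RELA are called higher, from 0.50 for TRAF2 to 2.05 for TNIP1. These were drawn because they were called: of the 35 tested genes of the NF-kB list, 27 were not called and the median was 0.17. The TRAF genes belong to another list.

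NF-kB genes that moved all rose, most by small amounts. Of 35 tested subunits, inhibitors and upstream regulators, 8 rose and none fell, with a median log2 change of 0.17; with the block 13 rose and 1 fell. Of the subunits, NFKB1, the precursor of p50, was at 270.1, 319.9 and 267 CPM at 6 h and 176, 211 and 186 CPM at 0 h (log2 change 0.58, SE 0.08, adjusted p = 4.93e-05). REL was at 95.02, 97.4 and 90.5 CPM at 6 h and 58.6, 65.8 and 67.6 CPM at 0 h (log2 change 0.56, SE 0.09, adjusted p = 0.000217). NFKB2, the precursor of p52, rose by 0.67 (adjusted p = 0.00264). RELA, the partner of p50, was at 41.5, 25.1 and 33.4 CPM at 6 h and 39.1, 33.5 and 39.2 CPM at 0 h (log2 change -0.17, adjusted p = 0.872), with overlapping libraries. Of the proteins that hold NF-kB in check, NFKBIA was at 328, 301 and 284 CPM in the 6 h libraries, against 128, 114 and 123 CPM in the 0 h libraries (log2 change 1.32, SE 0.10, adjusted p = 4.37e-09). TNIP1, a partner of the ubiquitin-editing enzyme A20, was at 478, 585 and 388 CPM in the 6 h libraries, against 114, 132 and 106 CPM in the 0 h libraries (log2 change 2.05, SE 0.17, adjusted p = 3.96e-08), on chromosome 13 from 12650570 to 12661353 (GRCg7b). Both inhibitors had non-overlapping libraries, with a narrow spread at 6 h for NFKBIA (SD 22.5 CPM) and a wider one for TNIP1 (SD 98.5 CPM). NFKBIZ and NFKBIE rose by 0.94 (adjusted p = 0.00222) and 0.55 (adjusted p = 0.0353), and the kinase gene RIPK2 by 0.61 (adjusted p = 0.0263). NFKBIE lost its call without the 6 h replicate 2 library (0.50, adjusted p = 0.138). RIPK2 did so without the 0 h replicate 1 library (0.49, adjusted p = 0.181). TNFAIP3, the gene of A20 itself, chosen after its values were seen, was at 5.52, 2.01 and 3.90 CPM at 6 h and 1.15, 0.963 and 1.79 CPM at 0 h, with adjusted p = 0.0536 and, with the block, 0.0106. Of the TRAF genes, TRAF3 was at 193, 221 and 206 CPM at 6 h and 115, 95.3 and 119 CPM at 0 h (log2 change 0.91, SE 0.12, adjusted p = 1.81e-05). TRAF7, TRAF1 and TRAF2 rose by 0.75, 0.74 and 0.50 (adjusted p = 1.83e-06, 0.000167 and 0.00311). TRAF7 overlaps CASKIN1, which also rose, so its reads are uncertain. These TRAF genes belong to the list of 37 tested pattern recognition receptors and adaptors, of which 5 rose and 2 fell around a median of 0.013.

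Transcription factor genes outside the NF-kB list also rose. Immediate early factors gave 5 rises and no fall among 44 tested (11 rises with the block), with a median log2 change of 0.15. KLF6, a zinc finger factor of injured tissue, was at 228, 256 and 264 CPM at 6 h and 166, 152 and 156 CPM at 0 h (log2 change 0.66, SE 0.10, adjusted p = 9.87e-05). BTG2 and BTG1 rose by 0.68 (adjusted p = 0.000719) and 0.60 (adjusted p = 0.000848). EGR1 (0.55, adjusted p = 0.00377) and ATF3 (0.61, adjusted p = 0.00163), chosen after their values were seen, were called with the block only. Of 113 tested factors of the bHLH, SOX, FOX, ETS, GATA, RUNX and related families, 5 rose and 1 fell (13 and 1 with the block). RUNX1, a factor of blood cell development, was at 139, 139 and 121 CPM at 6 h and 67.2, 60.02 and 72.5 CPM at 0 h (log2 change 1.00, SE 0.09, adjusted p = 1.85e-07). TBX3, a T-box factor of limb and heart development, was at 99.9, 95.2 and 98.6 CPM at 6 h and 50.03, 42.9 and 50.2 CPM at 0 h (log2 change 1.04, SE 0.09, adjusted p = 5.63e-08). ETS1 was at 212, 237 and 185 CPM at 6 h and 122, 137 and 121 CPM at 0 h (log2 change 0.74, SE 0.12, adjusted p = 0.000242). In these 3 genes the highest 0 h library stood well below the lowest 6 h library. NFATC1 and GATA6 were called at 0.95 and 0.43, and NFIL3, a bZIP repressor of clock genes, at 0.62. NFATC1 lost its call without the 0 h replicate 2 library (0.77, adjusted p = 0.275). GATA6 did so without the 0 h replicate 2 library (0.33, adjusted p = 0.244). NFIL3 did so without the 6 h replicate 3 library (0.43, adjusted p = 0.314). With the block bZIP factors gave 3 rises and 3 falls among 30 tested, against 1 rise without it, and homeobox factors 2 rises and 5 falls among 58, against 1 fall. Among the homeobox genes ALX4 (-0.55, adjusted p = 0.000455) and HOXB4 (-0.47, adjusted p = 0.00273), factors of skeletal patterning chosen after their values were seen, were lower. Of 37 tested nuclear receptor and clock genes 3 rose: the clock factor NPAS2 (log2 change 0.60, SE 0.12, adjusted p = 0.005), the thyroid hormone receptor gene THRB (log2 change 0.44, SE 0.11, adjusted p = 0.0252) and its neighbour NR1D2, a clock repressor (log2 change 0.38, SE 0.10, adjusted p = 0.0431). NPAS2 lost its call without the 6 h replicate 2 library (0.42, adjusted p = 0.0764). THRB did so without the 6 h replicate 2 library (0.28, adjusted p = 0.221). NR1D2 did so without the 6 h replicate 1 library (0.27, adjusted p = 0.261).

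Sterol synthesis was the list with most calls among the enzymes: 17 of 32 tested genes rose and none fell, with a median log2 change of 0.73, against 0.0233 over all enzyme genes listed. The pathway builds cholesterol from acetyl-CoA, and its genes are switched on by the SREBP2 factor when cholesterol in the endoplasmic reticulum is low. HMGCS1, which makes HMG-CoA at its start, was at 575, 543 and 389 CPM in the 6 h libraries, against 202, 138 and 136 CPM in the 0 h libraries (log2 change 1.66, SE 0.17, adjusted p = 6.74e-07). MSMO1, a demethylase late in the pathway, was at 716, 647 and 489.9 CPM in the 6 h libraries, against 258, 178 and 156 CPM in the 0 h libraries (log2 change 1.65, SE 0.18, adjusted p = 1.64e-06). LSS, which closes the sterol rings, was at 222, 238 and 148 CPM at 6 h and 73.6, 73.4 and 56.5 CPM at 0 h (log2 change 1.58, SE 0.17, adjusted p = 1.13e-06). In each of these genes the 6 h library of replicate 3 was the lowest of its group and still above all 0 h libraries. CYP51A1, NSDHL, SQLE and DHCR7, enzymes between squalene and cholesterol, rose by 1.41, 1.30, 1.13 and 1.07 (adjusted p = 4.3e-06, 1.32e-06, 8.96e-05 and 5.64e-05). STARD4, a carrier of cholesterol between membranes, was at 187, 161 and 123 CPM at 6 h and 55.98, 45.9 and 40.4 CPM at 0 h (log2 change 1.73, SE 0.14, adjusted p = 2.53e-08). Outside the 8 smallest p-values of the list, INSIG1, whose product holds back SREBP factors, was at 33.5, 24.1 and 18.1 CPM at 6 h and 10.1, 11.6 and 6.42 CPM at 0 h (log2 change 1.42, SE 0.24, adjusted p = 0.000747). It was chosen after its values were seen. With the block 19 of the list were higher, the others being HSD17B7 (0.74, adjusted p = 6.15e-05) and MVD (0.54, adjusted p = 0.0221), both chosen after their values were seen.

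Fatty acid and glycerolipid enzymes gave 9 rises among 66 tested, around a median of 0.068, and 11 rises and 2 falls with the block. SCD, a desaturase chosen after its values were seen, was called with the block only (0.54, adjusted p = 0.000446). ACLY, which makes cytosolic acetyl-CoA, was at 597, 513 and 374 CPM at 6 h and 325, 326 and 278 CPM at 0 h (log2 change 0.68, SE 0.13, adjusted p = 0.00266). FADS2, a desaturase of polyunsaturated fatty acids, was at 55, 60.5 and 42.9 CPM at 6 h and 25.4, 29.5 and 28.8 CPM at 0 h (log2 change 0.92, SE 0.16, adjusted p = 0.00106), and ELOVL5, which lengthens them, rose by 0.59 (adjusted p = 0.00183). LIPG, a secreted lipase that acts on high-density lipoprotein, was at 266, 316 and 171 CPM at 6 h and 105, 141 and 90.99 CPM at 0 h (log2 change 1.16, SE 0.22, adjusted p = 0.00245). ACSBG2 and ACSL4, which couple fatty acids to coenzyme A, rose by 1.11 (adjusted p = 0.00138) and 0.45 (adjusted p = 0.00293). ELOVL6 and LPIN1 were called at 0.63 and 0.61. ELOVL6 lost its call without the 6 h replicate 2 library (0.46, adjusted p = 0.117). LPIN1 did so without the 6 h replicate 1 library (0.50, adjusted p = 0.129). None of 17 tested genes of prostaglandin, leukotriene and phospholipase metabolism was called, and 3 were with the block.

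Kinase and phosphatase genes held scattered calls. Among 121 tested kinase genes 6 rose and 1 fell (11 and 3 with the block). NUAK2, a stress kinase related to AMPK, was at 54.1, 64.2 and 62.6 CPM at 6 h and 13.98, 22.3 and 20.5 CPM at 0 h (log2 change 1.67, SE 0.20, adjusted p = 1.09e-05). PIK3R3, a regulatory subunit of phosphoinositide 3-kinase, was at 278, 295 and 242 CPM at 6 h and 146, 138 and 138 CPM at 0 h (log2 change 0.95, SE 0.10, adjusted p = 8.45e-07). Neither gene's groups overlapped. MAP3K5, the stress kinase ASK1, and PTK2, the focal adhesion kinase, were called at 0.53 and 0.36. MAP3K5 lost its call without the 0 h replicate 2 library (0.44, adjusted p = 0.0894). PTK2 did so without the 0 h replicate 1 library (0.24, adjusted p = 0.263). ERK feedback proteins and phosphatases gave 4 rises among 67 tested (9 rises and 1 fall with the block): SPRY4, an inhibitor of ERK signalling (log2 change 1.04, SE 0.14, adjusted p = 4.61e-05), and the MAP kinase phosphatases DUSP16 (log2 change 0.78, SE 0.16, adjusted p = 0.00351), DUSP10 (0.53) and DUSP6 (0.55). DUSP10 lost its call without the 0 h replicate 2 library (0.44, adjusted p = 0.142). DUSP6 did so without the 0 h replicate 2 library (0.45, adjusted p = 0.221).

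Of 61 tested extracellular proteases and inhibitors, 3 rose (5 rose and 3 fell with the block). TIMP3, a matrix-bound inhibitor of metalloproteinases, was at 727, 2309 and 1066 CPM in the 6 h libraries, against 204, 398 and 301 CPM in the 0 h libraries (log2 change 2.18, SE 0.36, adjusted p = 0.000477), on chromosome 1 from 53137054 to 53174022 (GRCg7b). The replicate 2 library was the highest in both groups and stood far above the other 6 h libraries. Without the mock libraries of replicate 2 the log2 change was 1.82. ADAM33 rose by 0.75 (adjusted p = 0.0018), and ADAMTS5, which cleaves aggrecan, was called at 0.83. ADAMTS5 lost its call without the 6 h replicate 2 library (0.56, adjusted p = 0.269). DIO3, which inactivates thyroid hormone, was at 21.1, 16.5 and 12.5 CPM at 6 h and 5.88, 4.92 and 4.24 CPM at 0 h (log2 change 1.74, SE 0.27, adjusted p = 0.000217). With CYP24A1, which breaks down vitamin D (0.63), it made up the 2 rises among 78 tested genes of redox, nitric oxide, polyamine and hormone metabolism, where the block added 1 fall. Sugar and glycan enzymes gave 3 rises among 89 tested (7 rises and 3 falls with the block). HAS2 was at 287, 231 and 275 CPM at 6 h and 132, 103 and 132 CPM at 0 h (log2 change 1.11, SE 0.16, adjusted p = 6e-05). CHST13, a chondroitin sulfotransferase, had 63 counts at 6 h and 8 at 0 h, a ratio of 8.16 (exact 95% interval 3.90 to 19.7). It passed the filter of 1 CPM only through its 6 h level (mean 1.29 CPM, against 0.169 at 0 h), so the filter favoured a rise. Ubiquitin ligases and related enzymes gave 2 rises among 108 tested and 7 with the block. The 2 were SMURF2, a ligase that marks receptors of TGF-beta and its SMADs (log2 change 0.46, SE 0.09, adjusted p = 0.00312), and DTX2 (0.45). CYP24A1 lost its call without the 0 h replicate 1 library (0.49, adjusted p = 0.261). DTX2 did so without the 6 h replicate 2 library (0.35, adjusted p = 0.217).

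Actin cytoskeleton, contractile and matrix genes gave 7 rises and 1 fall among 77 tested, and 18 rises and 6 falls with the block. THBS1, the matrix glycoprotein thrombospondin 1 that activates latent TGF-beta, was at 2161, 3197 and 2145 CPM in the 6 h libraries, against 954, 1198 and 1018 CPM in the 0 h libraries (log2 change 1.24, SE 0.14, adjusted p = 2.88e-06). ACTB, beta-actin, was at 6300.1, 7525 and 6567 CPM at 6 h and 5288, 5463 and 5442 CPM at 0 h (log2 change 0.33, SE 0.08, adjusted p = 0.0211). ACTB lost its call without the 6 h replicate 2 library (0.25, adjusted p = 0.16), the highest of the 6. ACTB is often taken as a reference gene, and its libraries did not overlap here. TAGLN, a smooth muscle actin-binding protein, was at 38.2, 57.7 and 49.2 CPM at 6 h and 25.4, 23.4 and 25.6 CPM at 0 h (log2 change 0.97, SE 0.16, adjusted p = 0.000425), and PDLIM5 and TPM1 rose by 0.98 (adjusted p = 7.52e-05) and 0.55 (adjusted p = 0.00163). TNFAIP6, which binds hyaluronan in inflamed tissue, rose by 0.73 (adjusted p = 0.00524). TNFAIP6 lost its call without the 0 h replicate 3 library (0.66, adjusted p = 0.0507).

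Other groups held few calls or none. Solute carriers gave 3 rises and 1 fall among 107 tested (11 rises and 2 falls with the block). The rises were the sodium-calcium exchanger gene SLC8A1 (log2 change 0.64, SE 0.14, adjusted p = 0.00683), the bicarbonate transporter gene SLC4A7 (log2 change 0.38, SE 0.09, adjusted p = 0.017) and the amino acid transporter gene SLC38A2 (log2 change 0.34, SE 0.09, adjusted p = 0.0384). SLC8A1 lost its call without the 6 h replicate 2 library (0.47, adjusted p = 0.0879). SLC4A7 did so without the 6 h replicate 2 library (0.26, adjusted p = 0.16). SLC38A2 did so without the 6 h replicate 2 library (0.27, adjusted p = 0.213). Genes of the cell cycle gave 3 rises among 74, and 4 rises and 1 fall with the block. The 3 were CDK6 (log2 change 0.59, SE 0.12, adjusted p = 0.00507), its partner cyclin gene CCND1 (log2 change 0.37, SE 0.09, adjusted p = 0.0262) and the inhibitor gene CDKN1B (log2 change 0.45, SE 0.11, adjusted p = 0.0181). CDK6 lost its call without the 6 h replicate 2 library (0.44, adjusted p = 0.0706). CCND1 did so without the 0 h replicate 1 library (0.30, adjusted p = 0.186). CDKN1B did so without the 0 h replicate 2 library (0.44, adjusted p = 0.0791). Apoptosis regulators gave 1 rise among 39, CASP8, and with the block 6 rises and 1 fall. Heat shock and unfolded protein response genes gave 1 rise among 55, the sensor kinase gene EIF2AK3 (log2 change 0.91, SE 0.18, adjusted p = 0.0035), and with the block 3 rises and 2 falls. None of 60 respiratory chain genes and none of 68 cytosolic ribosomal protein genes was called, with median log2 changes of -0.0051 and 0.084.

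The 26 falls of the main test, which had no block, held no group of the kind seen among the rises: no list had more than 2. With the block, 194 genes were lower and some lists held more. Actin, contractile and matrix genes had 6 falls beside 18 rises, and homeobox factors 5 beside 2. G protein-coupled receptors had 4 beside 5, integrins and adhesion receptors 4 beside 6, and fibroblast markers 4 beside 1. MAP2K6, the kinase that activates p38, was at 2.00, 2.28 and 1.47 CPM in the 6 h libraries, against 11.1, 19.4 and 10.3 CPM in the 0 h libraries (log2 change -2.82, SE 0.38, adjusted p = 3.59e-05). It was the only fall beyond a log2 change of -2, and its 6 h libraries lay close together. TRAIL-LIKE, a chicken ligand gene of the TRAIL kind, was at 20.3, 23.7 and 20.6 CPM at 6 h and 32.4, 55.4 and 36.1 CPM at 0 h (log2 change -0.94, SE 0.24, adjusted p = 0.0344). EDA2R, the receptor for ectodysplasin A2, was at 126, 109 and 114 CPM at 6 h and 172, 178 and 156 CPM at 0 h (log2 change -0.54, SE 0.09, adjusted p = 0.000838). METRNL, a secreted protein of the meteorin family, was at 6.64, 6.96 and 5.88 CPM at 6 h and 14.4, 13.6 and 9.20 CPM at 0 h (log2 change -0.93, SE 0.23, adjusted p = 0.0292). The groups did not overlap in any of them. TRAIL-LIKE lost its call without the 0 h replicate 2 library (-0.67, adjusted p = 0.295). METRNL did so without the 0 h replicate 1 library (-0.81, adjusted p = 0.15). TRIL did so without the 0 h replicate 2 library (-0.77, adjusted p = 0.137).

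Among the transcription factor and zinc finger genes that fell, IRX1, an Iroquois homeobox factor of embryonic patterning, was at 3.60, 5.07 and 5.56 CPM at 6 h and 11.1, 11.3 and 8.67 CPM at 0 h (log2 change -1.12, SE 0.25, adjusted p = 0.00923). SMAD3, which carries the TGF-beta and activin signal to the nucleus, was at 152, 141 and 144 CPM at 6 h and 200.1, 179 and 185 CPM at 0 h (log2 change -0.37, SE 0.08, adjusted p = 0.00759). AHR1B, an aryl hydrocarbon receptor gene of the chicken, was at 66.4, 59.3 and 55.97 CPM at 6 h and 90.03, 107 and 84.8 CPM at 0 h (log2 change -0.64, SE 0.13, adjusted p = 0.00623). ZNF469, a zinc finger gene linked in humans to corneal collagen, was at 54.6, 47.2 and 51.4 CPM at 6 h and 75.3, 91.95 and 84.1 CPM at 0 h (log2 change -0.72, SE 0.14, adjusted p = 0.00328). ZNF395 was at 11.3, 12.4 and 8.37 CPM at 6 h and 17.6, 21.2 and 16.6 CPM at 0 h (log2 change -0.79, SE 0.21, adjusted p = 0.045). Of these genes only IRX1 and SMAD3 were among the 3 falls counted above for the transcription factor class. The remaining fall of that class is not reported here. IRX1 lost its call without the 6 h replicate 1 library (-0.96, adjusted p = 0.0613). SMAD3 did so without the 0 h replicate 1 library (-0.32, adjusted p = 0.0687). AHR1B did so without the 0 h replicate 2 library (-0.53, adjusted p = 0.0646). ZNF395 did so whichever of the 6 libraries was left out. Its adjusted p was highest without the 0 h replicate 2 library (-0.68, adjusted p = 0.223).

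Of the structural and other genes that fell, MAB21L2, a gene of eye and limb development, was at 153, 109 and 160.2 CPM at 6 h and 252, 247 and 247 CPM at 0 h (log2 change -0.82, SE 0.15, adjusted p = 0.0018). SYNM, an intermediate filament protein, was at 4.32, 8.47 and 6.77 CPM at 6 h and 10.97, 15.8 and 11.6 CPM at 0 h (log2 change -0.96, SE 0.21, adjusted p = 0.00923). SNTB2, a syntrophin of the dystrophin complex, was at 13.4, 13.4 and 15.1 CPM at 6 h and 22.1, 28.6 and 19.7 CPM at 0 h (log2 change -0.75, SE 0.18, adjusted p = 0.0186). In MAB21L2 and SNTB2 the 0 h libraries stood apart from the 6 h libraries by more than the 6 h libraries differed. LZTS1 (log2 change -0.82, SE 0.21, adjusted p = 0.0313) and the galactosyltransferase gene B4GALT4 (log2 change -0.66, SE 0.17, adjusted p = 0.0422) were lower too. SYNM lost its call without the 0 h replicate 2 library (-0.78, adjusted p = 0.1). SNTB2 did so without the 0 h replicate 2 library (-0.58, adjusted p = 0.17). LZTS1 did so without the 6 h replicate 3 library (-0.67, adjusted p = 0.175). B4GALT4 did so whichever of the 6 libraries was left out. Its adjusted p was highest without the 0 h replicate 2 library (-0.52, adjusted p = 0.262). Of the 26 falls, 5 were called under all 17 alternatives tried, among them MAP2K6, EDA2R, ZNF469 and MAB21L2.

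With the replicate block, 168 more genes were lower, among them genes of the fibroblast matrix, chosen here after their values were seen. COL1A2, a chain of type I collagen, was at 169.6, 313 and 188 CPM at 6 h and 243, 451 and 279.7 CPM at 0 h (block log2 change -0.54, adjusted p = 0.00116). COL5A1, of type V collagen, was at 94.6, 136 and 71.1 CPM at 6 h and 134, 187 and 111 CPM at 0 h (-0.53, adjusted p = 0.00113). In both, replicate 2 was the highest in each group, so the groups overlapped while every 6 h library was below the 0 h library of its own number. Without the block their adjusted p-values were 0.488 and 0.416. COL3A1 (-0.39), SPARC (-0.34) and SERPINH1, the collagen chaperone (-0.41), were lower in the same fit. Other genes of the matrix list were higher in it: POSTN (0.73), TNC (0.56), LOXL2 (0.45), COL12A1 (0.37) and PLOD2 (0.29). Over the whole list of actin cytoskeleton, contractile and matrix genes, 18 were higher and 6 lower with the block, so the list did not fall as a group. TNFSF10, the TRAIL gene, had a log2 change of -0.99 with the block (adjusted p = 0.0393).

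**Figure D4:**
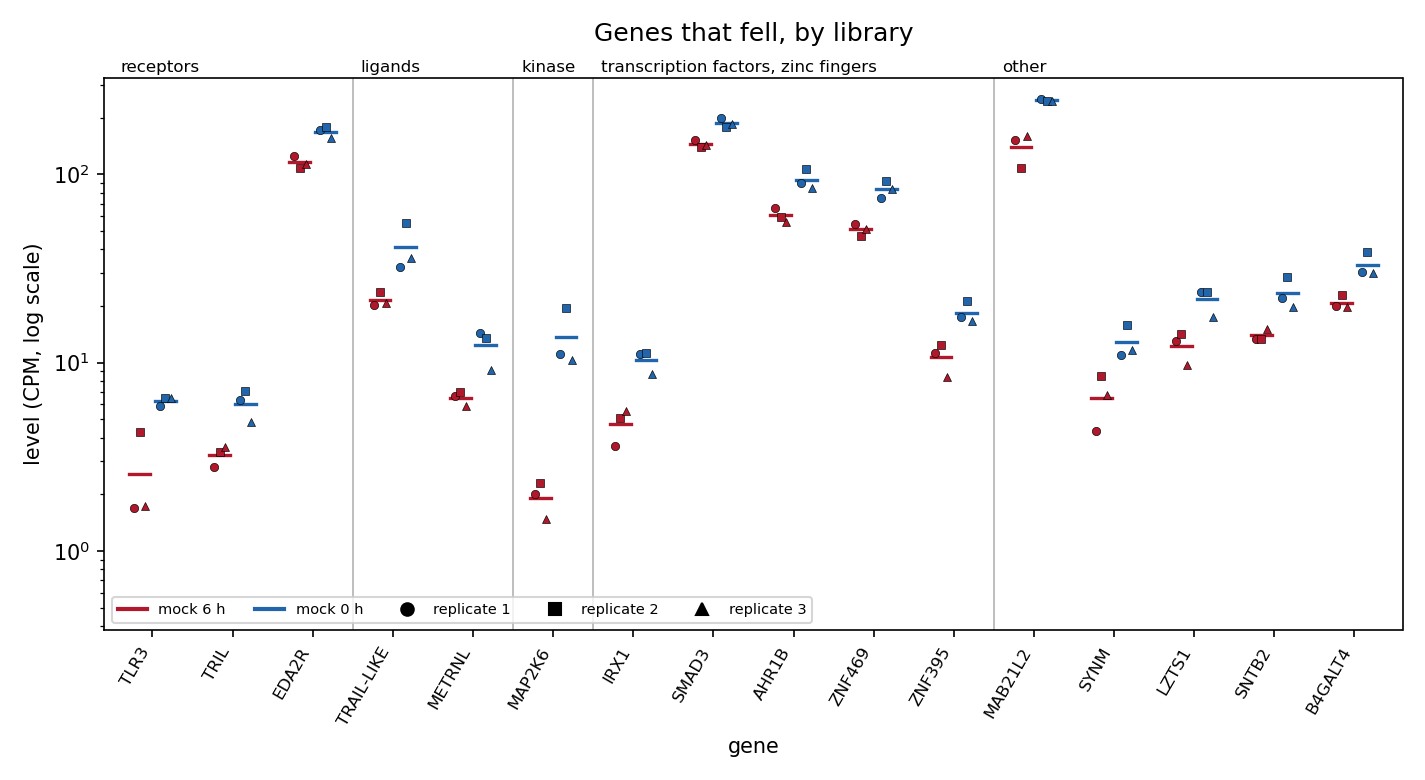
Levels (CPM, log scale) of 16 genes called lower in mock cells, with 6 h in red left of 0 h in blue. Marker shapes are replicates and bars are means of 3 libraries. In every gene shown the 6 h libraries lie below the 0 h libraries, and the distance is widest for MAP2K6, at 1.47 to 2.28 CPM at 6 h and 10.3 to 19.4 CPM at 0 h.

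Part of the calls ended when replicate 2 was left out. The same was not tried for replicate 1 or 3, so whether replicate 2 had a part of its own in this loss was not tested. With the 0 h library of replicate 1, 2 or 3 alone left out, 192, 204 and 190 genes were higher. For the 6 h libraries these counts were 280, 174 and 231. Without its 4 mock libraries, which leaves 2 libraries in each group, 1.58% of all genes tested were higher and 0.178% lower (1.76% together). Of the 141 called genes chosen by the naming rule, 95 stayed called and 46 did not, and none of the 46 changed sign. The list counts that follow are of all members called in that fit, whether or not the main fit called them. Sterol synthesis had 16 rises, cytokines 8 and NF-kB genes 6. Cytokine and interferon receptors, TGF-beta family co-receptors, ubiquitin enzymes and heat shock genes had none. Kinases had 2 rises, against 6 in the main fit, and growth factor ligands 3 against 5. TGF-beta family ligands and interferon-stimulated effectors had 2 against 4 each. Guidance ligands, nuclear receptors, solute carriers and cell cycle genes had 1 against 3 each. ERK feedback proteins and phosphatases had 5 against 4. Among genes whose call stood without any single library, IFNGR1 was lost (0.36, adjusted p = 0.129). So were BAMBI (0.52, 0.0949), SMURF2 (0.32, 0.0925), CHST13 (2.62, 0.113) and EIF2AK3 (0.71, 0.101).

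The earlier mock times share their 0 h libraries with the 6 h comparison, so their values are given side by side only. The genes that rose at 6 h had a median log2 change of 0.0086 at 30 min, 0.018 at 1 h and 0.75 at 6 h, each against 0 h. No gene was called at 30 min and 2 (0.0171%) at 1 h, and both were also called at 6 h: CCN2 and CYR61, targets of the Hippo pathway factor YAP. CCN2 was at 253 ± 27.2 CPM at 0 h, 338 ± 63.2 at 30 min, 585 ± 50.2 at 1 h and 399.8 ± 25.9 at 6 h (SD, n = 3 each), with a log2 change of 1.21 at 1 h (adjusted p = 0.000983). CYR61 was at 367 ± 55.6, 528 ± 129.9, 776 ± 95.8 and 737 ± 164 CPM at these times, with 1.08 at 1 h (adjusted p = 0.0355). CCL4, by contrast, was at 369.6 ± 53.8, 447 ± 87.1, 357 ± 102 and 1614 ± 148 CPM. NFKBIA was at 121 ± 7.38, 140.0 ± 22.8, 125 ± 5.62 and 304 ± 22.5 CPM, so its mean at 1 h was close to that at 0 h. Of the 270 rises, 7 had a log2 change of at least 0.5 at 30 min and 16 at 1 h.

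**Figure D5:**
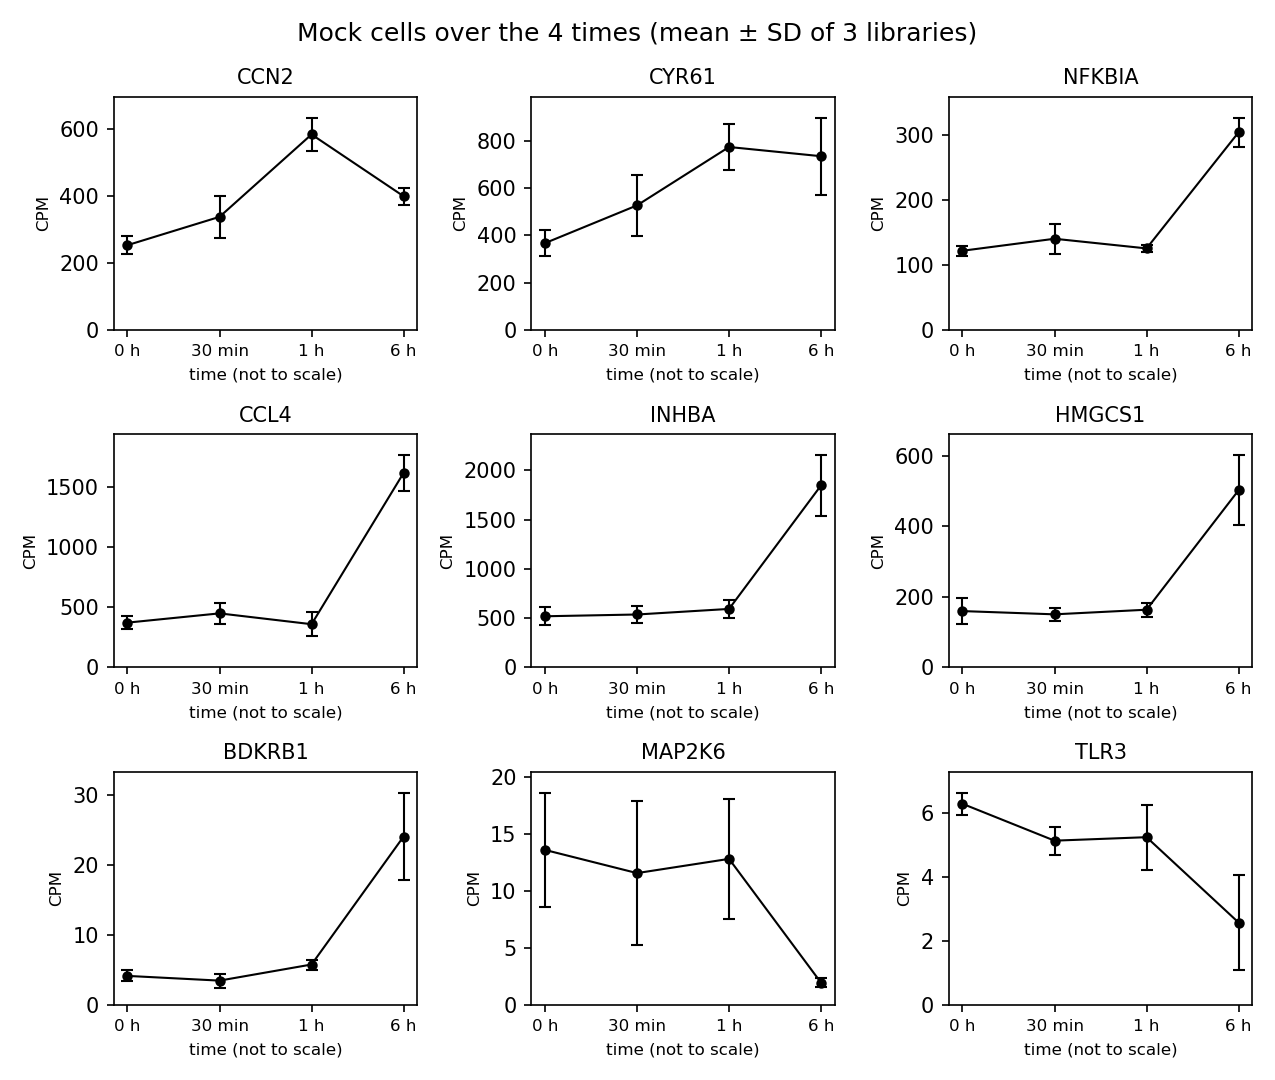
Mean level (CPM) and SD over 3 mock libraries at 0 h, 30 min, 1 h and 6 h for 9 genes. The time axis is not to scale and all later times share the 0 h libraries. CCN2 is highest at 1 h, CYR61 is about as high at 1 h as at 6 h, and NFKBIA, CCL4, INHBA, HMGCS1 and BDKRB1 stand apart from their earlier levels only at 6 h, as do the low levels of MAP2K6.

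IRF9 itself was at 20.98, 20.8 and 23.2 CPM in the 6 h libraries of IRF9 knockdown cells and 15.6, 15.99 and 21.5 CPM in their 0 h libraries. Each was below every mock library of the same time, whose levels are given above, but IRF9 RNA was far from absent. Comparisons with these cells are thus with cells that had less IRF9 RNA, not with cells without it. In these cells, 268 of the 270 rises and 25 of the 26 falls had the same sign between 6 h and 0 h, with a median log2 change of 0.66 over the rises and -0.56 over the falls. The share of equal signs over all genes tested is not given here. These genes were chosen by their test in mock cells, which favours large mock changes and not large knockdown changes. A smaller knockdown value, in these medians or in the single genes below, thus shows no weaker response. An interaction term tested how far the change differed between knockdown and mock cells, and 0 of 11696 genes passed (0% called; smallest adjusted p = 0.99992, edgeR). At an unadjusted p under 0.05 there were 165 genes, 20 of them among the 296 that changed in mock cells, and DESeq2 and limma voom called 0 as well. TNFSF15 changed by 1.76 in knockdown cells and 2.94 in mock cells (difference -1.18, SE 0.46). MAP2K6 changed by -1.69 in knockdown cells and -2.82 in mock cells (difference 1.13, SE 0.52), and TLR3 by -0.63 and -1.26 (difference 0.63, SE 0.38). NFKBIA and CCL4 differed by -0.01 (SE 0.14) and 0.01 (SE 0.24). These intervals leave room for differences of some size in the low genes, and a p that misses the threshold does not show that the genotypes respond alike.

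FBN3, the gene of the matrix protein fibrillin 3 and by rule among the largest rises, was at 7.36, 15.3 and 5.50 CPM at 6 h and 1.65, 2.09 and 3.71 CPM at 0 h (log2 change 1.92, SE 0.40, adjusted p = 0.00593). FBN3 lost its call without the 6 h replicate 2 library (1.37, adjusted p = 0.0984). Some called genes lie side by side in the genome: 27 pairs of neighbours among the 11695 tested genes with a place in the GRCg7b table. Neighbours are next to each other among tested genes only, so untested genes may lie between them. The gaps ran up to 91651 bases, between TRIL and CHN2, and some pairs overlap. Of all genes tested 2.53% were called, and whether called genes lie together more often than other genes was not tested. IL8L1 ends 9352 bases before IL8L2 on chromosome 4, and BDKRB2 ends 3128 bases before BDKRB1. LOC395551, chosen after its values were seen, lies 6222 bases from CCL4 on chromosome 19 (906402 to 907528), and the reference lists CCL4 among its other names. It had 2.56, 3.56 and 3.07 CPM in the 6 h libraries and no count in the 0 h libraries, at least 16-fold higher against a floor of 3 counts per library, and reads shared with CCL4 were not tested. LIF lies 10041 bases from HORMAD2, a meiosis gene that rose by 1.36, and ACSL6, with 96 counts at 6 h and 20 at 0 h, lies 14765 bases from CSF2. ACSL6, like CSF2 and LOC395551, passed the filter only through its 6 h level. TNFAIP2, a gene induced by TNF, rose by 1.59 and its neighbour EXOC3L by 1.38. MMAB and MVK, genes of cobalamin and mevalonate metabolism, lie 163 bases apart and rose by 0.68 and 0.80. Other pairs overlap, and their counts are uncertain because it is not stated whether counting used strand. TMEM132B (2.59) overlaps the end of AACS (1.48), an enzyme that makes acetoacetyl-CoA, and MYH15 (1.29) overlaps HHLA2 (1.02), a relative of the B7 immune ligands. The neighbours and these overlapping genes, TMEM132B, IL8L1, IL8L2 and the bradykinin receptors apart, were chosen after their values were seen.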

How the data were processed

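Polyadenylated RNA of DF1 cells was sequenced as directional libraries, per the labels' protocols. The authors deposited 1 file of raw read counts per gene for each of the 24 libraries, and per the submitters' processing notes the tools named were the aligner STAR 2.7.11b with the chicken build GRCg7b, the counter HTSeq 2.0.5, the read tools Trim Galore 0.6.10 and FastQC 0.12.1, and edgeR 3.40.2. The 5 summary lines of each file were left out. Reads not placed uniquely made up 3.59% to 3.87% of the 6 mock libraries of 6 h and 0 h.

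The counts were fitted here with edgeR 4.0.16 in R 4.3.3 (TMM normalization, quasi-likelihood F test, 1 mean for each of the 8 groups, 24 libraries), with Benjamini-Hochberg adjustment and a threshold of 0.05, on genes with a mean CPM of at least 1 in mock 6 h or 0 h cells. All groups shared 1 estimate of the spread. A simulated count table was used to test the fit. Alternatives were fits of fewer libraries, a replicate block, RLE scaling, DESeq2 1.42.0, limma 3.58.1 voom, 3 other filters and each library left out. Deviations from the group means of same-numbered 6 h and 0 h mock libraries correlated at 0.324, 0.496 and 0.287 across genes, so the numbers were taken to pair the libraries, and blocked counts are given for the lists they move by over 1.5 times. The main test had no block and so left this pairing out. It called 296 genes, against 739 with the block, so a gene not called or with overlapping groups in the main test may still differ within pairs. In all, 131 list members were called only with the block (88 higher, 43 lower), of which the text names examples.

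Named genes were the signalling nodes, the 15 largest rises and falls with a symbol among genes whose groups did not overlap and whose higher group averaged 5 CPM or more, and the called members of each gene list, up to 8 by p-value. Not every gene that this rule names is reported here. Members and lists were chosen with earlier results of these data known. Gene positions come from the RefSeq table of GRCg7b. Intervals on counts cover counting error only.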

Additional observations from a re-analysis of the deposited data

How the results depend on the processing

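The counts of 270 rises and 26 falls moved with the libraries that shared the estimate of the spread and with the block. The 6 libraries alone gave 149 higher and 7 lower genes, and the 12 mock libraries 141 and 7. The replicate block gave 545 and 194, and the 6 libraries with the block 832 and 456. The block ended no call of the 296 genes. DESeq2 gave 67 lower genes, no filter on low counts 54 and a minimum mean of 5 CPM 40, while the rises stayed within 1.5 times of 270 under these 3 settings. Leaving out 1 library gave 174 to 280 higher and 9 to 24 lower genes. The interaction with the knockdown had 0 calls under every alternative tried (419 genes at an unadjusted p under 0.05 with the block). The cause of these shifts was not tested.

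Of the named genes, 6 that were not called changed sign when libraries were left out, with log2 changes near 0. IFIH1 ranged over -0.25 to 0.088 (-0.25 without the mock libraries of replicate 2, -0.14 without the 6 h replicate 2 library and -0.10 without the 0 h replicate 2 library), and MAVS over -0.052 to 0.11 (-0.03 without 0 h replicate 1 or 3). IFNAR1 ranged over -0.061 to 0.052, IFNAR2 over -0.060 to 0.13, RELA over -0.35 to 0.0041 and EIF2AK2 over -0.20 to 0.10. IRF1 passed the threshold in the 6 libraries with the block (0.96, adjusted p = 0.0295), and so did IRF7 (0.61, adjusted p = 0.0151). That setting called 832 genes higher and 456 lower, and IRF1 passed under 2 of the 17 alternatives. A count of the promoters that hold an NF-kB motif was planned and not run, since no genome was used here. The filter at 1 CPM was a choice: 13000 genes were tested with filterByExpr and 20360 with no filter, against 11696 here. At this depth, 3 counts in a library were 0.160 to 0.240 CPM.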
